A study of Mus musculus with 12 samples.

Results

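The genes described here form the core of the mTOR pathway as it could be read on an expression array: Deptor, Rraga, Mtor, Rptor, Mlst8, Rheb, Tsc1, Tsc2 and Eif4ebp1. All probe sets that the array annotation gives to 1 of these symbols were taken. Of the 9 genes 8 had a probe set, 15 probe sets in all, out of 22626 tested probe sets for 12393 named genes. Rptor had none and is not analysed here. Deptor was put on the list because its signal was lower in wild type mice on quercetin than on control diet, and Rraga because it was lower in POR-null than in wild type mice on control diet. Those 2 differences, and every other comparison of Deptor and Rraga, are therefore given as descriptions without a test. The intervals printed for them make no allowance for the choice and are not read as tests.

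mTOR is a protein kinase that drives protein synthesis and cell growth and holds back autophagy when nutrients and growth factors are plentiful. It works in complexes: raptor, the product of Rptor, defines the nutrient-sensing complex mTORC1, and the protein of Mlst8 is a subunit of every mTOR complex. The protein of Deptor binds mTOR and inhibits it. Amino acids act through the Rag GTPases, of which Rraga encodes RagA, which bring mTORC1 to the lysosome. There the GTPase Rheb switches the kinase on, and the TSC1 and TSC2 proteins together keep Rheb off. The protein of Eif4ebp1 is a substrate of mTORC1 that blocks cap-dependent translation until it is phosphorylated. Most of this control runs through phosphorylation and protein turnover, neither of which an array of RNA measures.

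The 4 groups were male C57BL/6 mice aged 6 to 8 weeks: POR-null mice with quercetin, POR-null mice on control diet, wild type mice with quercetin and wild type mice on control diet. Every group had 14 days on a soya-free RM3 powder and then 24 h on that powder with or without 6200 ppm quercetin, a plant flavonol, or 7 mg for a mouse. POR is cytochrome P450 reductase, the electron donor of microsomal cytochromes P450. From the literature the null line loses the gene in hepatocytes, so its colon may keep it. The labels do not name the cells, and the deleted gene is not analysed here. Each array held the pooled RNA of 3 mice, whose colon epithelium had been scraped off, and each group had 3 arrays, so that 9 mice stand behind a group mean. P-values therefore measure the spread between pools, and the number of arrays limits their precision.

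Array medians lay between 5.9 and 5.98 log2 units, and correlations between arrays of 1 group ran from 0.984 to 0.995, against 0.981 to 0.993 between groups. Colon epithelium was the dominant signal: all 10 of 10 epithelial markers were measured, none among the dimmest 25% of signals, and their summed linear signal lay between 37074 and 41674 on all 12 arrays. Other tissue varied more. The 9 smooth muscle markers summed to between 2128 and 3011 in POR-null mice on quercetin, 1011 and 3043 in POR-null mice on control diet, 1038 and 12057 in wild type mice on quercetin and 918 and 1036 in wild type mice on control diet. The 6 measured pancreatic acinar markers, of 9 listed, reached 6899 in POR-null mice on quercetin and 3177 in wild type mice on control diet, against at most 355 in POR-null mice on control diet and 754 in wild type mice on quercetin. With limma, 0 of 22626 probe sets passed an adjusted p of 0.05 in any of the comparisons below. Leaving out wild type control array 1 let 41 pass between the genotypes on control diet. Leaving out wild type quercetin array 1 or POR-null quercetin array 1 let 1 to 3 pass in some comparisons, and none of the 15 probe sets described here was among those that passed.

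For Rraga, the RefSeq promoter table of GRCm38.p6 gives the sequence before the start of the gene. It is printed because its gene is 1 of the pair that led to this list. The 250 bases end just before the start, on the plus strand at chr4:86575423-86575672, and capitals mark 2 motifs.
Rraga: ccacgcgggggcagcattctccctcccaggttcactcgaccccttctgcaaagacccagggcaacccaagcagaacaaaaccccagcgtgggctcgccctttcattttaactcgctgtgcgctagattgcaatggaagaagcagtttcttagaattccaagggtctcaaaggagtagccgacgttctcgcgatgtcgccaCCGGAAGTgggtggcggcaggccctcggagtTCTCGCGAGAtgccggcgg
The first, CCGGAAGT, is a core that ETS family factors bind and begins 50 bases before the start. The second, TCTCGCGAGA, is a palindrome and begins 19 bases before the start. It is the longest run of the window that equals its own reverse complement. Both motifs were picked after the sequence had been read, and they do not overlap.

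In the same window of 32851 mouse promoters, searched on both strands, CCGGAAGT was present in 2.88% and TCTCGCGAGA in 0.39%. Of the 7 genes on the list with a promoter in the table, Rraga, Mtor and Tsc2 each held CCGGAAGT 1 time, and Rraga alone held TCTCGCGAGA. The E-box CACGTG, the core of the element read by the lysosomal regulator TFEB, was in 6.02% of promoters and, among the 7, in Rheb 1 time. CCAAT was in 33.8% of promoters and in that of Mtor 4 times. A match describes these letters and not a bound site, and the arrays carry no measure of binding.

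Deptor is covered by 3 probe sets, and 1453571_at had the highest mean, 8.88 log2 units, above 91.8% of all probe sets. Its signal was 8.86, 9.09 and 9.27 in POR-null mice on quercetin and 8.79, 8.97 and 8.96 in POR-null mice on control diet. It was 8.65, 8.31 and 8.31 in wild type mice on quercetin, against 9.12, 9.02 and 9.22 in wild type mice on control diet. The 3 wild type arrays with quercetin were thus the 3 lowest of the 12. The other 9 arrays lay within 8.79 to 9.27. From low to high the group means were 8.42 ± 0.20 in wild type mice on quercetin, 8.91 ± 0.10 in POR-null mice on control diet, 9.07 ± 0.21 in POR-null mice on quercetin and 9.12 ± 0.10 in wild type mice on control diet (SD, n = 3 each). Of neighbours in that order, wild type quercetin and POR-null control did not overlap, while each other neighbouring pair did.

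**Figure D1:**
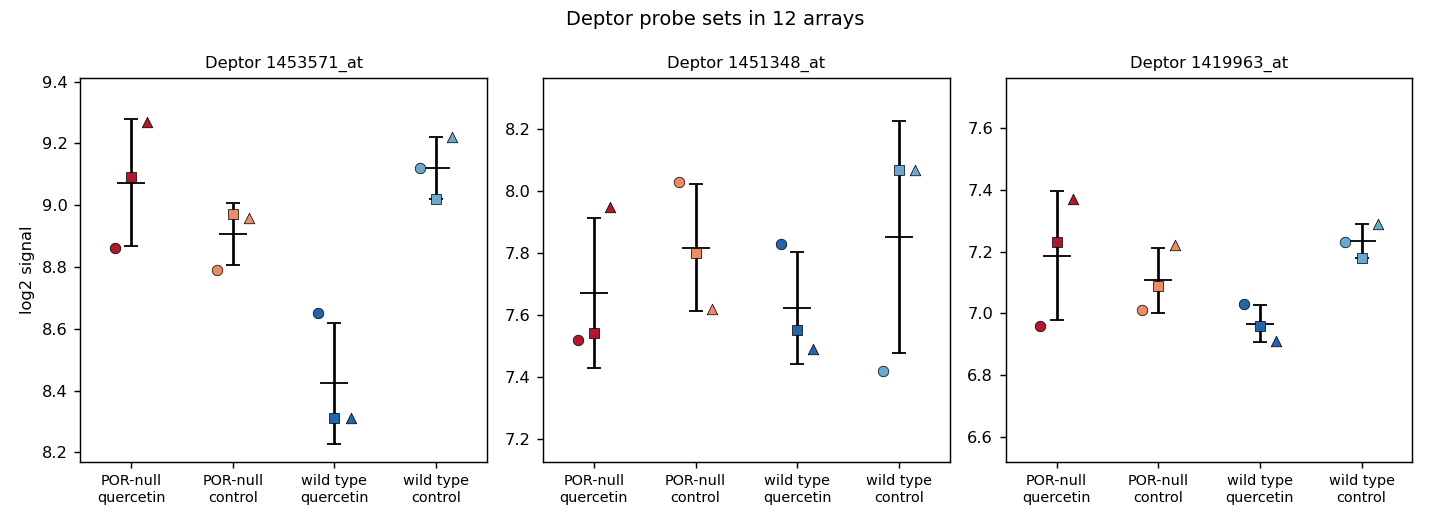
Log2 signal of the 3 Deptor probe sets, 1 panel each, in the 4 groups, where each point is an array (circle, square and triangle for arrays 1, 2 and 3), the bar is the group mean and the whiskers are 1 SD. On 1453571_at the wild type quercetin arrays, at 8.31 to 8.65, lie below the other 9 arrays, 1419963_at shows the same order of group means with smaller gaps, and on 1451348_at the groups overlap.

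In wild type mice the signal of 1453571_at with quercetin was lower than on control diet by a log2 difference of -0.70 (SE 0.12, 95% interval -0.96 to -0.43), that is 61.7% of the control level. This is the difference for which Deptor was chosen. Its size exceeded that of 99.0% of all probe sets in the same comparison, against 90.0% for 1451348_at and 92.8% for 1419963_at. The choice favours a high rank, so nothing is read from it. In POR-null mice, whose arrays do not enter the wild type difference, quercetin differed from control diet by 0.17 (SE 0.12, 95% interval -0.10 to 0.43). The arrays overlapped, and this difference is given as a description without a test. The interval takes in both a lower and a higher level in POR-null mice on quercetin.

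Set against wild type, POR-null mice on control diet had less Deptor signal by -0.21 (95% interval -0.48 to 0.05), with every POR-null array below every wild type array. On quercetin the sign was the other way: the POR-null mean was higher by 0.65 (95% interval 0.38 to 0.92), 157% of the wild type level, again without overlap. The response to quercetin in POR-null minus that in wild type mice was 0.86 (SE 0.18). Each of these values shares wild type arrays with the choice of the gene.

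The other 2 Deptor probe sets did not show the same size. On 1419963_at, with a mean of 7.12, the signal was 7.03, 6.96 and 6.91 in wild type mice on quercetin, against 7.23, 7.18 and 7.29 on control diet. The difference was -0.27 (95% interval -0.50 to -0.03), with no overlap between the groups. In POR-null mice the same probe set differed by 0.08 (95% interval -0.15 to 0.31).

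On 1451348_at, with a mean of 7.74, wild type mice had 7.83, 7.55 and 7.49 on quercetin and 7.42, 8.07 and 8.07 on control diet. Here wild type control array 1 lay below every quercetin array, and the difference was -0.23 with overlap. POR-null mice differed by -0.15 with quercetin (95% interval -0.54 to 0.25). Over the 12 arrays 1453571_at had a Pearson r of 0.89 with 1419963_at and of 0.38 with 1451348_at. These correlations describe 12 arrays that share labelling and normalization, and groups that differ enter them.

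Smooth muscle RNA differed between the wild type quercetin arrays, and all 9 of its markers were measured. Their mean log2 signal was 6.48, 8.09 and 10.18 in wild type mice on quercetin, against 6.28, 6.17 and 6.02 on control diet. Deptor on 1453571_at was 8.65, 8.31 and 8.31 on those quercetin arrays in the same order, highest where the smooth muscle signal was lowest. At 8.65 the array with 6.48 lay below every control array. POR-null arrays 1 to 3 on quercetin, with smooth muscle means of 8.13, 7.66 and 7.57, had Deptor at 8.86, 9.09 and 9.27. Markers of MHC class II and macrophages, with 8 of 8 measured, summed to 2616 to 6786 in wild type mice on quercetin and 939 to 3454 on control diet, and fibroblast markers, with 8 of 8 measured, to 744 to 1420 and 304 to 928. Both pairs of ranges overlapped. By single gene, 7 of the 8 MHC class II and macrophage markers were higher with quercetin in wild type mice, with a median of 1.38. Their median was -0.47 with quercetin in POR-null mice, and between the genotypes 1.16 on control diet and -0.81 on quercetin. All 8 fibroblast markers were higher with quercetin in wild type mice (median 1.04), and their median was -0.20 in POR-null mice. All 6 measured acinar markers were lower with quercetin in wild type mice (median -1.28) and higher in POR-null mice (median 1.81). The wild type control arrays had acinar means of 8.70, 7.48 and 5.87, with Deptor at 9.12, 9.02 and 9.22. On the wild type quercetin arrays the acinar means were 5.54, 6.72 and 5.83, with Deptor at 8.65, 8.31 and 8.31. The 6 measured B and plasma cell markers had a median of 0.97 with quercetin in wild type mice and -0.64 in POR-null mice. Without wild type quercetin array 3, which had the most smooth muscle signal, the wild type difference in Deptor was -0.64. Array 2 had the same Deptor value of 8.31, so leaving out either array gives the same difference. That value therefore tells nothing about smooth muscle. In pooled tissue fewer cells of a type and less RNA per cell cannot be told apart, and the part of the tissue mix in the Deptor values was not tested.

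Rraga has 1 probe set here, 1428905_at, with a mean of 6.68 log2 units, above 64.5% of probe sets. Its signal was 6.59, 6.50 and 6.54 in POR-null mice on quercetin and 6.51, 6.39 and 6.57 in POR-null mice on control diet. In wild type mice it was 6.79, 6.74 and 6.75 on quercetin and 7.02, 6.76 and 7.01 on control diet. All 6 POR-null arrays lay below all 6 wild type arrays, with 6.59 as the highest POR-null value and 6.74 as the lowest wild type value. The group means from low to high were 6.49 ± 0.09 in POR-null control, 6.54 ± 0.05 in POR-null quercetin, 6.76 ± 0.03 in wild type quercetin and 6.93 ± 0.15 in wild type control mice (SD, n = 3 each). Between neighbours in that order, POR-null quercetin and wild type quercetin did not overlap, while arrays of the other neighbouring groups did.

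On control diet the POR-null mean was lower than the wild type mean by -0.44 (SE 0.09, 95% interval -0.64 to -0.24), 73.7% of the wild type level. Rraga was chosen for this difference. The arrays on quercetin are other pools, and there the POR-null mean was lower by -0.22 (SE 0.09, 95% interval -0.42 to -0.01), 86.1% of the wild type level. That difference too is given as a description without a test. The genes were chosen with earlier results of these data known, so these other pools are no independent check. The Rraga signal was lower in 3 of 3 POR-null pools than in any wild type pool, as was the case for 3.74% of all probe sets in that comparison. For the same reason nothing is read from this share.

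Quercetin itself was followed by smaller differences in Rraga. Wild type mice on quercetin were below wild type mice on control diet by -0.17 (SE 0.09), with overlap. In POR-null mice the difference was 0.05 (95% interval -0.15 to 0.26).

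**Figure D2:**
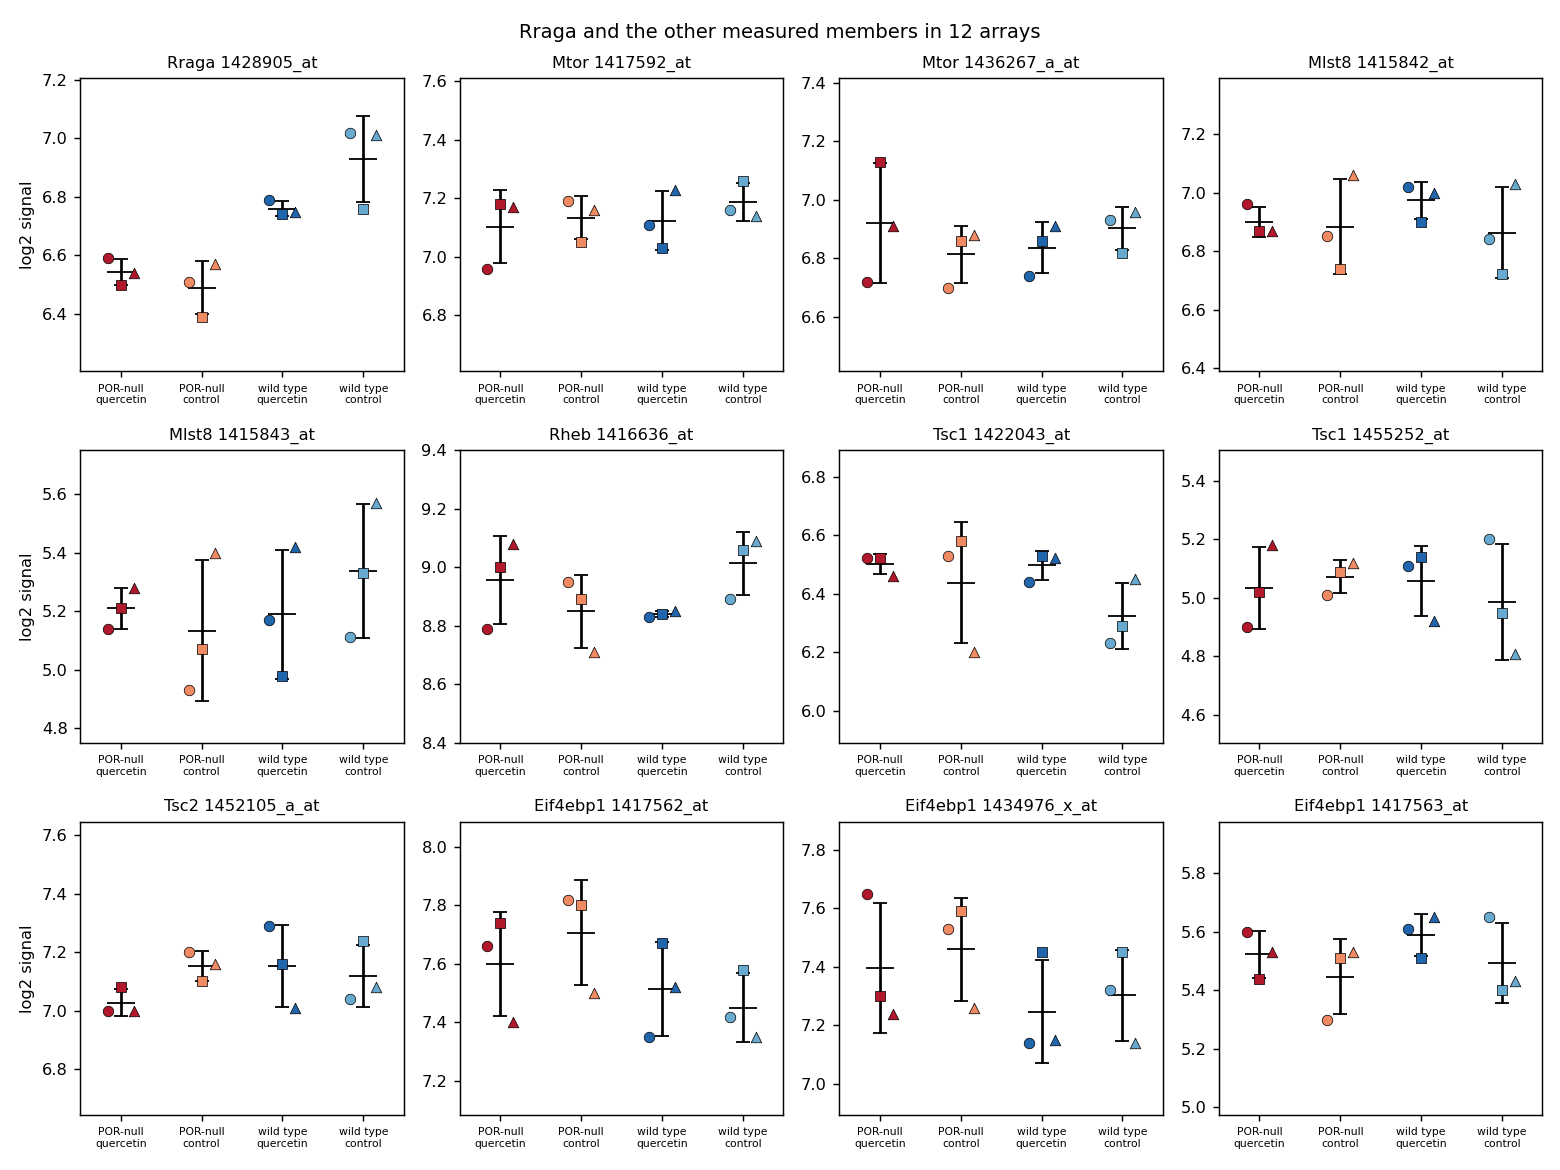
Log2 signal of Rraga and of the 11 probe sets of Mtor, Mlst8, Rheb, Tsc1, Tsc2 and Eif4ebp1, 1 panel each with its own axis, in the 4 groups (points are arrays 1, 2 and 3 as circle, square and triangle, bar is the mean, whiskers are 1 SD). The 6 POR-null values of Rraga, at most 6.59, lie below the 6 wild type values, at least 6.74, and most other panels overlap between groups.

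Among tissue markers on control diet, smooth muscle had sums of 1011 to 3043 in POR-null mice against 918 to 1036 in wild type mice, ranges that overlap at their ends. Pancreatic acinar markers had sums of 335 to 355 in POR-null mice against 390 to 3177 in wild type mice. Markers of MHC class II and macrophages summed to 2599 to 5741 in POR-null mice and 939 to 3454 in wild type mice. POR-null control array 3 had a smooth muscle mean of 6.36, the lowest of its group and close to the wild type control range, and its Rraga value was 6.57. The acinar mean of that array was 5.62, below the wild type control range of 5.87 to 8.70. Wild type control array 3 had an acinar mean of 5.87, close to the POR-null control range of 5.59 to 5.66, and its Rraga value was 7.01. Its smooth muscle mean of 6.02 lay below the POR-null control range of 6.36 to 8.11. Its mean for MHC class II and macrophage markers, 6.54, lay below the POR-null control range of 7.67 to 8.51. Neither array was thus alike to the other genotype in all markers. Beyond these values the part of the markers in the Rraga difference was not tested.

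The partners of RagA in the Rag heterodimer showed no such gap. Rragc, which encodes RagC, had a mean of 7.99 on 1415749_a_at and differed between POR-null and wild type mice by -0.02 on control diet (95% interval -0.24 to 0.20) and by -0.15 on quercetin (95% interval -0.37 to 0.07). Rragd, which encodes RagD, gave 3.52 on 1431164_at, a low signal above 5.4% of probe sets, with a difference of 0.04 on control diet and 0.03 on quercetin. Rragb is not analysed here.

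For the kinase itself, Mtor, the signal on 1417592_at was 6.96, 7.18 and 7.17 in POR-null mice on quercetin and 7.19, 7.05 and 7.16 in POR-null mice on control diet. It was 7.11, 7.03 and 7.23 in wild type mice on quercetin and 7.16, 7.26 and 7.14 in wild type mice on control diet. The 4 groups overlapped throughout. Quercetin differed from control diet by -0.06 in wild type mice (95% interval -0.27 to 0.14) and by -0.03 in POR-null mice (95% interval -0.24 to 0.18). POR-null differed from wild type mice by -0.05 on control diet (95% interval -0.26 to 0.15) and by -0.02 on quercetin (95% interval -0.23 to 0.19). The second Mtor probe set, 1436267_a_at, ran from 6.70 to 7.13 over the arrays and had a Pearson r of 0.31 with the first over 12 arrays.

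Mlst8, which encodes the subunit that binds the mTOR kinase domain, was read by 1415842_at at 6.72 to 7.06 over all arrays. Its 4 differences lay between -0.07 and 0.11. The dimmer probe set 1415843_at, with a mean of 5.22, gave -0.20 between POR-null and wild type mice on control diet (95% interval -0.53 to 0.12), and all of its groups overlapped.

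Rheb, the direct activator of mTORC1, had 8.79, 9.00 and 9.08 in POR-null mice on quercetin, 8.95, 8.89 and 8.71 in POR-null mice on control diet, 8.83, 8.84 and 8.85 in wild type mice on quercetin and 8.89, 9.06 and 9.09 in wild type mice on control diet. In wild type mice every quercetin array was below every control array, by a mean of -0.17 (SE 0.10, 95% interval -0.39 to 0.04), with an unadjusted p of 0.108 and an adjusted p = 0.957 by limma. The gap between the groups was 8.85 against 8.89. In POR-null mice the difference was 0.11 with overlap.

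Tsc1 and Tsc2 encode the complex that inhibits Rheb. Tsc1 on 1422043_at had 6.44, 6.53 and 6.52 in wild type mice on quercetin and 6.23, 6.29 and 6.45 in wild type mice on control diet, a difference of 0.17 (95% interval -0.06 to 0.41) where control array 3, at 6.45, lay just above quercetin array 1. In the other comparisons it differed by 0.06, 0.11 and 0, and a second and dimmer Tsc1 probe set, 1455252_at, did not follow it over the arrays (r = -0.28 over 12 arrays). Tsc2 had 7.00, 7.08 and 7.00 in POR-null mice on quercetin, against 7.20, 7.10 and 7.16 on control diet. The POR-null groups did not overlap, with a difference of -0.13 (95% interval -0.33 to 0.08) and an adjusted p = 1 by limma. With quercetin in POR-null mice 1 of the 15 probe sets was lower without overlap, that of Tsc2, and 0 were higher, against 3.27% and 3.49% of all probe sets.

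Eif4ebp1, the translation repressor downstream of mTORC1, was brightest on 1417562_at. Its values were 7.82, 7.80 and 7.50 in POR-null mice on control diet, against 7.42, 7.58 and 7.35 in wild type mice on control diet. POR-null array 3 fell among the wild type values. The difference of 0.26 (SE 0.13, 95% interval -0.02 to 0.53) had an unadjusted p of 0.0633 and an adjusted p = 0.741 by limma, the lowest of any test on the genes other than Deptor and Rraga. The probe set 1434976_x_at, whose r with it was 0.78, gave 0.16, and the dim 1417563_at, whose r with it was -0.47, gave -0.05.

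**Figure D3:**
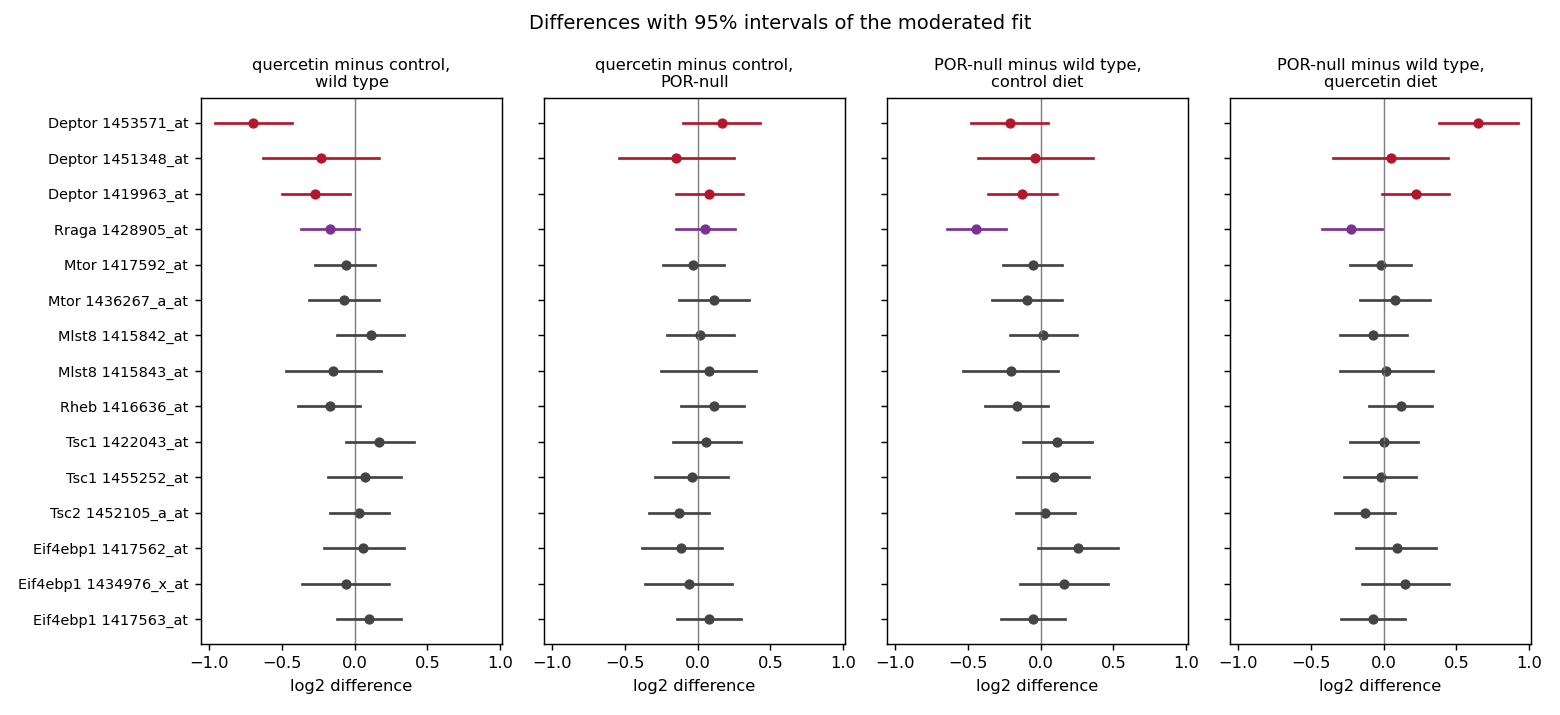
Log2 differences of the 15 probe sets in the 4 comparisons, 1 panel each, as points with 95% intervals of the moderated fit, where right of 0 means higher with quercetin or higher in POR-null mice. Apart from Deptor in both panels that include wild type quercetin arrays, and from Rraga in the genotype panels, the points lie close to 0 and the intervals include it.

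Counted over all 15 probe sets, the groups did not overlap for 3 with quercetin in wild type mice, with 3 lower and 0 higher, against 3.66% and 5.65% of all probe sets. These were 2 of Deptor and that of Rheb. For POR-null against wild type mice the groups did not overlap for 2 on control diet, with 2 lower and 0 higher, against 4.86% and 4.81% of all probe sets, and for 1 higher and 1 lower on quercetin, against 3.08% and 3.74%. Deptor and Rraga account for these 4, and since both genes were chosen on such gaps nothing is read from the counts.

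Without Deptor and Rraga, the 11 probe sets of Mtor, Mlst8, Rheb, Tsc1, Tsc2 and Eif4ebp1 gave 44 differences over the 4 comparisons. These ran from -0.20 to 0.26, with a median size of 0.08, while the median size over all probe sets was 0.08 and 0.07 for quercetin in wild type and POR-null mice and 0.09 and 0.07 for genotype on control diet and on quercetin. By limma 0 of the 11 probe sets passed in any of the 4 comparisons by adjusted p, against 0% of all probe sets. An unadjusted p under 0.05 was likewise met by 0 of 11 in each, against 5.15% and 2.82% of all probe sets for quercetin in wild type and POR-null mice and 6.79% and 2.39% for genotype on control diet and on quercetin. All of their 95% intervals lay within -0.53 to 0.53, that is within 69.3% to 144% of the level compared with. The outer bounds were set by Mlst8 1415843_at and Eif4ebp1 1417562_at, both between the genotypes on control diet.

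The pathway around these genes was described by 8 lists with 132 symbols, of which 103 had a probe set, each gene read by its brightest one. The 132 include Strad and Skp1a, aliases of Strada and Skp1, which are listed too. In none of the comparisons did a gene of these lists pass by limma. With quercetin in wild type mice 50 of the 103 had a positive and 52 a negative difference, with a median of 0 and 1 unadjusted p under 0.05, against 5.15% of all probe sets. In POR-null mice 42 were positive and 59 negative, with a median of -0.01 and 1 such p, against 2.82%. POR-null against wild type mice gave 62 positive and 40 negative on control diet, with a median of 0.02 and 8 such p (3 higher, 5 lower), against 6.79%, and 47 positive and 56 negative on quercetin, with a median of -0.02 and 1 such p, against 2.39%. The interaction had 7 such p, against 4.74%. Over all 22626 probe sets the medians were 0, 0.01, -0.01 and -0.01 in the same order of comparisons. Positive and negative differences over all probe sets numbered 11436 and 11090 for quercetin in wild type and 11780 and 10669 in POR-null mice. For genotype they numbered 10569 and 11969 on control diet and 10727 and 11737 on quercetin.

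**Figure D4:**
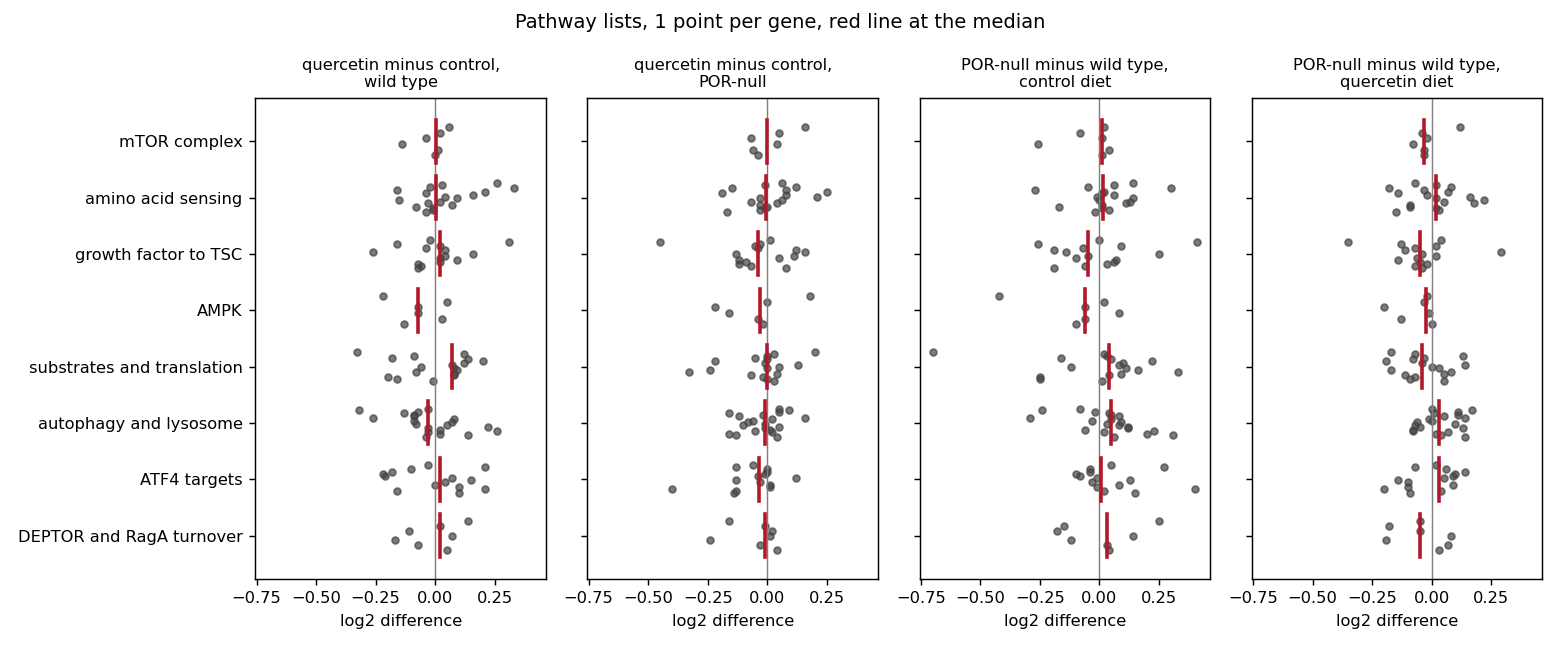
Log2 differences of 103 genes in 8 pathway lists, 1 point for each gene and a red line at each list median, for the 4 comparisons. List medians lie within 0.1 of 0 in every panel, and the point farthest from 0 is Sgk1, at -0.70 between POR-null and wild type mice on control diet.

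Among further parts of the mTOR complexes, 6 of 8 listed genes were measured, and their differences with quercetin in wild type mice ran from -0.14 to 0.06. Prr5, which encodes a subunit of the second complex mTORC2, was 4.33 in POR-null against 4.59 in wild type mice on control diet (-0.26, adjusted p = 0.71 by limma), without overlap but at low signal. The assembly factors Telo2 and Tti2 differed by -0.04 and 0.06 with quercetin in wild type mice.

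Of 28 genes of amino acid sensing 18 were measured, with 9 positive and 9 negative differences for quercetin in each genotype. The sestrins, which pass on leucine shortage and stress, had differences of both signs. Sesn3 was 6.71 with quercetin against 6.38 on control diet in wild type mice (0.33, adjusted p = 0.957 by limma), while Sesn2 was 6.23 in POR-null against 6.50 in wild type mice on control diet (-0.27, adjusted p = 0.726). Lamtor4, a subunit of the lysosomal anchor of the Rag proteins, was 7.90 in POR-null and 7.72 in wild type mice on quercetin (0.18, adjusted p = 0.998), without overlap. Mios and Sec13, both of the GATOR2 complex, gave 0.21 and -0.19 with quercetin in POR-null mice.

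On the growth factor route to TSC 15 of 20 genes were measured. Ddit4, whose product REDD1 restrains mTORC1 under stress, was 8.04 ± 0.22 with quercetin against 8.49 ± 0.10 on control diet in POR-null mice (-0.45, adjusted p = 1 by limma), without overlap. In wild type mice it was 8.39 with quercetin and 8.08 on control diet (0.31, adjusted p = 0.957), with overlap. The test of the difference between these 2 responses gave -0.76 (SE 0.30), with an unadjusted p of 0.0251 and an adjusted p = 0.998 by limma. Irs2, an adaptor of the insulin receptor, was 6.05 in POR-null and 5.77 in wild type mice on quercetin (0.29, adjusted p = 0.998), without overlap. Gsk3b, a kinase that phosphorylates TSC2, was 6.84 in POR-null and 7.10 in wild type mice on control diet (-0.26, adjusted p = 0.734).

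The AMPK list had 6 of 11 symbols measured, where the 11 include the alias Strad, with 2 positive and 4 negative differences for quercetin in wild type mice. Stk11, which encodes the upstream kinase LKB1, differed by -0.13 there. Prkab1, a regulatory subunit, was 9.18 in POR-null and 9.38 in wild type mice on quercetin (-0.20, adjusted p = 0.998 by limma).

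Substrates of mTORC1 and the translation factors under its control had 17 of 21 genes measured. Sgk1, a kinase activated by mTORC2 that regulates sodium uptake in colon epithelium, was 9.51 ± 0.31 in POR-null and 10.20 ± 0.26 in wild type mice on control diet (SD, n = 3 each). The difference of -0.70 (SE 0.23) had no overlap, with an unadjusted p of 0.0096 and an adjusted p = 0.71 by limma. The cap-binding factor Eif4e and the helicase Eif4a1 were both lower by -0.25 in the same comparison, without overlap, with an adjusted p = 0.741 each. Ulk1, the autophagy kinase that mTORC1 inhibits, was 7.43 with quercetin and 7.61 on control diet in wild type mice (-0.18, adjusted p = 0.957). Lpin1, a phosphatidate phosphatase phosphorylated by mTORC1, was 5.97 with quercetin and 5.77 on control diet in wild type mice (0.20, adjusted p = 0.957).

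For autophagy and the lysosome 20 of 21 genes were measured, with 14 positive and 6 negative differences for POR-null against wild type mice on control diet. Over all probe sets 10569 were positive and 11969 negative in that comparison. Map1lc3b, which encodes the autophagosome protein LC3B, was 9.53 ± 0.08 in POR-null and 9.22 ± 0.11 in wild type mice on control diet (SD, n = 3 each). The difference of 0.31 (SE 0.10) had no overlap and an adjusted p = 0.71 by limma. Mcoln1, a lysosomal calcium channel, was 7.36 in POR-null and 7.65 in wild type mice (-0.29, adjusted p = 0.734), with overlap.

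The list for ATF4, a transcription factor whose translation mTORC1 can raise, held Atf4 itself and a selection of its targets. All 14 listed genes were measured, with 7 positive and 7 negative differences between the genotypes on control diet. Psat1, a serine synthesis enzyme, was 4.18 with quercetin and 4.58 on control diet in POR-null mice (-0.40, adjusted p = 1 by limma). Slc7a5 and Slc3a2, the 2 chains of a leucine transporter, were lower with quercetin in wild type mice by -0.21 and -0.22 (adjusted p = 0.957 each), the first without overlap.

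DEPTOR protein is removed by a ubiquitin ligase that the casein kinase CK1 primes, and RagA is ubiquitinated by a ligase with SKP2. Of 9 listed symbols of these steps, which include the alias Skp1a, 7 were measured. Skp2 was 6.08 in POR-null and 5.84 in wild type mice on control diet (0.25, adjusted p = 0.719 by limma), without overlap. Csnk1a1, a CK1 kinase, was 9.83 with quercetin and 9.94 on control diet in wild type mice (-0.11), and Fbxw11, a substrate receptor of the DEPTOR ligase, differed by -0.03 with quercetin in POR-null mice.

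The pattern of Deptor over the 12 arrays was nearest to that of Ccn3, by Pearson r over all probe sets with 1 symbol. Deptor was chosen for its wild type quercetin difference, which favours probe sets with the same difference in this ranking. In that comparison Ccn3 1426851_a_at had the lowest difference of all probe sets, -2.69. What the likeness comes from was not tested. Both Ccn3 probe sets had r = 0.90 with 1453571_at, followed by Epn3 with 0.88, Rimklb with 0.84 and Serinc3 with 0.84. The Rimklb probe set is dim, with a mean of 3.55, and its other probe sets had r between -0.32 and 0.02. Ccn3, which encodes a secreted matrix protein, is also the nearest gene before Deptor on chromosome 15 with a probe set named for it alone, with 3 protein-coding genes between them. On 1426852_x_at it had 5.96, 6.79 and 6.63 in POR-null mice on quercetin, 6.12, 6.09 and 5.49 in POR-null mice on control diet, 5.47, 4.42 and 3.72 in wild type mice on quercetin and 6.93, 7.46 and 7.13 in wild type mice on control diet. As for Deptor, the 3 wild type quercetin arrays were the 3 lowest, but the highest of them was only just below the lowest POR-null array. On the other probe set, 1426851_a_at, POR-null control array 3, at 4.85, lay below wild type quercetin array 1, at 5.04.

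**Figure D5:**
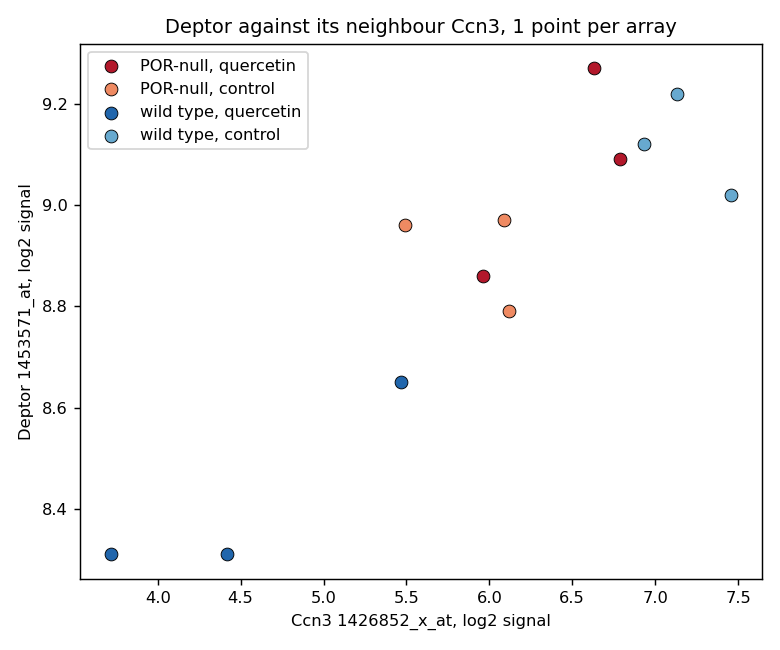
Log2 signal of Deptor 1453571_at against that of Ccn3 1426852_x_at, 1 point for each of 12 arrays, coloured by group. Pearson r is 0.90, the wild type quercetin arrays lie at the lower left, and the points share arrays, labelling and normalization.

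Mal2, the next gene on the Ccn3 side, differed by -0.36 with quercetin in wild type mice (95% interval -0.77 to 0.04), with overlap. On the other side Col14a1 differed by 0.08 there and Mrpl13 by 0. Around Rraga on chromosome 4, the difference between POR-null and wild type mice on control diet was -0.14 for Cntln, 0.05 for Psip1, 0.02 for Haus6, -0.09 for Plin2 and 0.04 for Dennd4c, against -0.44 for Rraga. Sh3gl2, the nearest measured gene before Rraga, has 3 probe sets that disagree. They gave 0 on the brightest, 1418791_at, -0.28 on 1418792_at and -0.43 on 1449228_at (95% interval -0.73 to -0.13), each with overlap. On quercetin 1449228_at differed by -0.13, against -0.22 for Rraga. The probe sets most like Rraga over the 12 arrays were those of Rab14 with r = 0.88, Dr1 with 0.87, Med1 with 0.87, Cenpo with 0.86 and Ttc36 with 0.85. For Rab14, Dr1, Med1 and Cenpo the other probe sets of the same gene had r of at most 0.35, and Ttc36 had no other. The likeness thus holds for single probe sets. Rraga was chosen for its genotype difference on control diet, which favours probe sets with the same difference in this ranking.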

How the data were processed

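Affymetrix 430A arrays were read as deposited. The values are taken as log2 signal: the authors deposited them without a stated scale, they run from 2.7 to 14.09, and a natural log of a 16-bit scanner's top count would end at 11.1. MAS5 and RMA appear in the submitters' processing notes, and which of them made the values is not given in the sources used here. No step was repeated.

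After 64 control probe sets were left out, 22626 of 22690 were fitted with limma 3.58.1 in R 4.3.3 (lmFit, eBayes with trend) on all 12 arrays as 4 group means. Tests were two-sided, with Benjamini-Hochberg adjustment over all 22626 and a threshold of 0.05. SE and 95% intervals are those of this moderated fit. It had 8 residual degrees of freedom and a median of 4.91 prior ones. The intervals use the total, with a median of 12.9. The fit was checked on simulated data. Symbols came from the array annotation, with 20380 probe sets of 1 symbol, and 20351 were found in RefSeq (GRCm38.p6). Comparisons that share a group share its arrays.

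The genes, lists and tests were chosen with earlier results of these data known. In each list and comparison up to 3 genes of smallest unadjusted p could be named, together with the 3 nearest measured neighbours on each side and the 5 likest probe sets. Replicate numbers were checked for pairing through the correlation of deviations from group means. For genotype on control diet these were 0.19, 0.11 and 0.26, all above 0.1, so the numbers may pair those samples there. In the other comparisons not all were above 0.1. Correlations of this size do not establish a pairing, and the main fit does not use one. For genotype on control diet the fit with the number as a block passed 0 probe sets too. Alternatives were moderation without trend, a filter on low signal, fewer arrays in the fit, the replicate block, array weights, quantile normalization, median centring, other probe sets and single arrays left out.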

Additional observations from a re-analysis of the deposited data

Results flagged for a closer look

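Deptor on 1453571_at differed in opposite directions between the genotypes on the 2 diets. On control diet all 3 POR-null arrays lay below all 3 wild type arrays, and on quercetin all 3 POR-null arrays lay above all 3 wild type arrays. The difference on quercetin minus that on control diet was 0.86 on the log2 scale (SE 0.18, 95% interval 0.48 to 1.24). Neither the value nor its interval is read as a test, since both contain the wild type arrays for which the gene was chosen. The other Deptor probe sets gave 0.35 on 1419963_at and 0.08 on 1451348_at.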

How the results depend on the processing

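The differences of Deptor and Rraga kept their sign under every alternative run on the same probe set. With single arrays left out, Deptor 1453571_at lay between -0.81 and -0.64 for quercetin in wild type and between 0.07 and 0.27 in POR-null mice, and Rraga between -0.52 and -0.39 for genotype on control diet and between -0.24 and -0.20 on quercetin. With array weights, which reached 2.72 for POR-null control array 2 and 2.49 for wild type control array 3, 2 probe sets passed for quercetin in wild type mice and 399 for genotype on control diet. Among these 399 was 1 of the 15 probe sets, that of Rraga (-0.51), which was chosen for this difference, so that nothing is read from it. For genotype on quercetin the replicate block and the fit on the arrays of the comparison let 1 probe set pass each, and no other call changed under the replicate block. With single arrays left out the probe sets that passed numbered 0 to 3 for quercetin in wild type, 0 to 1 for quercetin in POR-null, 0 to 41 for genotype on control diet, 0 to 1 for genotype on quercetin and 0 to 1 for the interaction. The cause of these changes was not tested. No alternative without array weights let 1 of the 15 probe sets pass. Of the values for single genes 767 moved by less than their spread, 19 by more, mostly with another probe set of the gene, and 1 came to pass.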
